A study of Mus musculus with 15 samples.

Results

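Bcl11b was followed across the 15 arrays of whole PDA30364 tumors. The gene encodes a zinc finger transcription factor that commits thymocyte precursors to the T cell fate and holds mature T cells to it. It is also expressed in the basal layer and hair follicles of the skin and in several classes of neurons. It represses many of its target genes, together with the nucleosome remodeling and deacetylase (NuRD) complex, and it can be a subunit of the BAF chromatin remodeling complex. Bcl11b is 1 of 18193 genes measured, and all 4 probe sets that carry its symbol alone, out of 45101 in the table, were used. The gene was chosen by its measured levels in these same arrays, so its differences between groups are given as a description and no test was made of them. T cell genes (Cd3g and Cd8a) and skin genes (Krt5 and Trp63) were set beside it to ask which cells carry the signal.

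PDA30364 is a single cell line from a pancreatic ductal adenocarcinoma of a genetically engineered mouse model. The cells grew under the skin of C57BL/6-Ly5.1 mice that were 6 to 12 weeks old at inoculation, and whole tumors were collected on day 26. The combination group (n = 4) received the MEK inhibitor GDC-0623 at 30 mg/kg daily for about 2 weeks plus an agonist antibody (Ab) against CD40. The MEKi group (n = 3) received GDC-0623 plus control IgG, the CD40 Ab group (n = 4) vehicle plus the agonist Ab, and the control group (n = 4) vehicle plus control IgG. Ab or IgG was given on treatment days 3, 5 and 7 and 1 day before collection. Each array was 1 tumor. Values are log2 signals after robust multi-array average (RMA) normalization, and array medians lay between 5.16 and 5.24. A list of 10 ductal tumor epithelium genes had a mean log2 level of 10.16 to 11.09 in every array, so markers of the labelled tumor type were high throughout.

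The sample titles carry a number for each tumor, and these numbers fall into those under 10000 and those from 10000 on, and the groups do not share them evenly. All 4 combination tumors were under 10000 and all 3 MEKi tumors were from 10000 on. The CD40 Ab group had 2 of each kind, and the control group had 3 under 10000 and 1 from 10000 on. What these numbers stand for was not stated. The difference between combination and MEKi tumors and the difference between the number ranges cannot be told apart.

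Bcl11b was high in both groups that received the MEK inhibitor. By the probe set with the highest mean, 1435227_at, the log2 signal was 7.10, 7.14, 6.31 and 7.22 in combination tumors, 8.09, 7.40 and 7.49 in MEKi tumors, 5.45, 5.40, 6.09 and 5.93 in CD40 Ab tumors and 4.86, 5.26, 5.07 and 5.62 in control tumors. The 7 tumors with inhibitor all lay above the 8 without it, and the MEKi tumors all lay above the combination tumors. The share of all probe sets that separate the 7 from the 8 was not counted. On 1450339_a_at and 1438784_at the 7 and the 8 overlapped. CD40 Ab and control tumors overlapped. The group means were 6.94 ± 0.42 (combination), 7.66 ± 0.38 (MEKi), 5.72 ± 0.34 (CD40 Ab) and 5.20 ± 0.32 (control; all SD). The lowest tumor with inhibitor was combination replicate 3 at 6.31, and the highest tumor without it was CD40 Ab replicate 3 at 6.09.

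**Figure D1:**
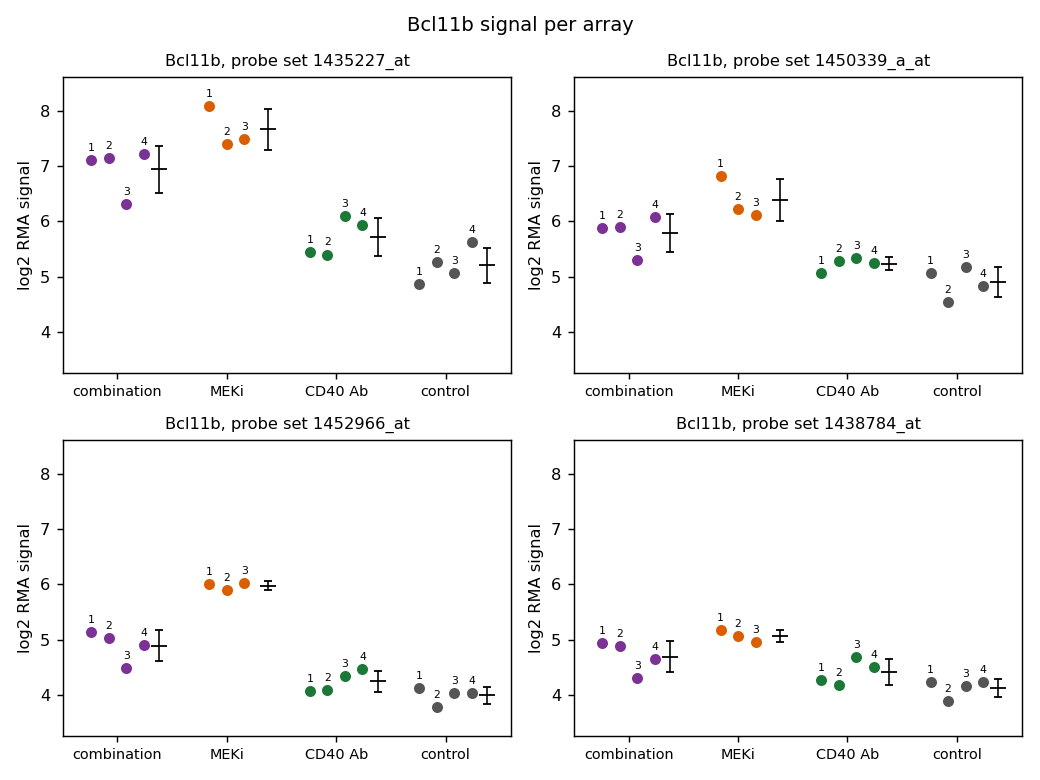
Log2 RMA signal (y axis) of each Bcl11b probe set in each array, by group (x axis). Points are arrays with their replicate number, and black bars are group means with SD. In each panel the MEKi arrays and the combination arrays lie above every control array.

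In combination tumors the 1435227_at signal was 1.74 ± 0.27 log2 units above control (difference ± SE, 3.34-fold). The groups did not overlap in 4 of 4 Bcl11b probe sets, with differences of 0.56 to 1.74. A difference without overlap in this direction was found for 8.64% of all probe sets. In MEKi tumors the signal was 2.46 ± 0.26 above control (5.49-fold), again without overlap in 4 of 4 probe sets (0.93 to 2.46), where 11.9% of all probe sets behaved so. CD40 Ab tumors were 0.51 ± 0.24 above control (1.43-fold), a difference within the range of the arrays, and 0 of 4 Bcl11b probe sets were free of overlap (0.25 to 0.51), against 3.31% of all probe sets. On the mean of the 4 probe sets they were 0.34 ± 0.12 above control without overlap (4.71 to 5.12 against 4.37 to 4.68).

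The agonist Ab was thus accompanied by a higher Bcl11b mean in the absence of inhibitor, within the spread of the arrays on each single probe set, and by a lower one in its presence. Combination tumors were 0.72 ± 0.31 below MEKi tumors (1.64-fold), and each combination tumor lay below each MEKi tumor in 4 of 4 probe sets (-1.09 to -0.37). Such a separation downwards was seen in 8.08% of all probe sets. With the number range as a covariate the difference was -0.14. Combination tumors were 1.22 ± 0.27 above CD40 Ab tumors (2.34-fold). In that comparison 2 of 4 Bcl11b probe sets were free of overlap (0.28 to 1.22), against 5.66% of all probe sets. On the mean of the 4 probe sets the difference was 0.68 ± 0.19, and the groups overlapped. Within the title numbers under 10000, combination tumors were 1.88 above control and 1.52 above CD40 Ab tumors. Within those from 10000 on, MEKi tumors were 2.04 above the only control tumor of that range.

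The other 3 probe sets kept this order of group means. On 1450339_a_at the signal was 5.87, 5.90, 5.30 and 6.08 in combination tumors, 6.81, 6.23 and 6.11 in MEKi tumors, 5.07, 5.29, 5.34 and 5.24 in CD40 Ab tumors and 5.06, 4.55, 5.18 and 4.83 in control tumors. Combination replicate 3 was again the lowest tumor with inhibitor, and here it lay within the CD40 Ab range. On 1452966_at the signal was 5.14, 5.03, 4.49 and 4.90 in combination tumors, 6.01, 5.89 and 6.03 in MEKi tumors, 4.07, 4.09, 4.35 and 4.47 in CD40 Ab tumors and 4.12, 3.78, 4.04 and 4.03 in control tumors. The MEKi arrays stood furthest from the combination arrays on that probe set. On 1438784_at the signal was 4.93, 4.89, 4.31 and 4.65 in combination tumors, 5.17, 5.06 and 4.96 in MEKi tumors, 4.27, 4.18, 4.69 and 4.51 in CD40 Ab tumors and 4.23, 3.89, 4.16 and 4.24 in control tumors.

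Cd3g encodes a chain of the CD3 complex that signals for the T cell receptor. Its log2 signal was 7.60, 8.58, 7.18 and 7.30 in combination tumors, 7.94, 5.59 and 7.24 in MEKi tumors, 6.33, 6.11, 6.78 and 6.86 in CD40 Ab tumors and 5.27, 5.46, 4.62 and 5.81 in control tumors. The MEKi tumors were split, with replicate 2 inside the control range. Cd8a, the alpha chain of the coreceptor of cytotoxic T cells, gave 6.67, 7.60, 6.79 and 6.63 in combination tumors, 6.76, 5.36 and 6.45 in MEKi tumors, 5.68, 5.83, 6.38 and 6.24 in CD40 Ab tumors and 5.07, 5.26, 5.74 and 5.60 in control tumors. MEKi replicate 2 was again within the control range, although its Bcl11b signal of 7.40 was 1.78 above the highest control. In combination tumors Cd3g was 2.38 ± 0.32 above control (adjusted p = 0.0016) and Cd8a 1.51 ± 0.22 above control (adjusted p = 0.00244). In MEKi tumors neither passed the test, with 1.63 ± 0.51 for Cd3g (adjusted p = 0.0678) and 0.77 ± 0.32 for Cd8a (adjusted p = 0.143). Neither passed in CD40 Ab tumors, with 1.23 ± 0.25 for Cd3g (adjusted p = 0.067) and 0.62 ± 0.18 for Cd8a (adjusted p = 0.236), and combination tumors did not differ from MEKi tumors beyond the threshold (0.74, adjusted p = 0.552, and 0.73, adjusted p = 0.345).

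Krt5 encodes a keratin of basal keratinocytes. Its log2 signal was 5.39, 4.83, 5.10 and 4.79 in combination tumors, 7.24, 8.65 and 8.38 in MEKi tumors, 5.18, 4.89, 6.91 and 4.96 in CD40 Ab tumors and 5.09, 4.91, 5.77 and 6.44 in control tumors. Only the MEKi group stood apart, while combination tumors lay within or below the control range. Trp63, a transcription factor of stratified epithelia, gave 5.28, 5.33, 4.89 and 5.37 in combination tumors, 6.97, 7.21 and 7.09 in MEKi tumors, 3.94, 4.61, 5.15 and 4.60 in CD40 Ab tumors and 4.35, 4.20, 4.47 and 5.54 in control tumors. In combination tumors Krt5 was -0.53 (adjusted p = 0.293) and Trp63 0.58 (adjusted p = 0.184) relative to control, and neither passed. In MEKi tumors Krt5 rose by 2.54 ± 0.43 (adjusted p = 0.00679) and Trp63 by 2.45 ± 0.29 (adjusted p = 0.00155). Against MEKi tumors, combination tumors fell by 3.06 for Krt5 (SE 0.32, adjusted p = 0.00374) and by 1.87 for Trp63 (SE 0.13, adjusted p = 0.000523). These 2 groups do not share a title number range. Control replicate 4, the only control from 10000 on, was the highest control in Krt5 (6.44) and Trp63 (5.54). Of the 2 CD40 Ab tumors in that range, replicate 3 had Krt5 at 6.91 and replicate 4 at 4.96. The part of the number range in Krt5 and Trp63 was not tested. Of the other 3 Trp63 probe sets, 1459581_at was higher in MEKi tumors (0.35 ± 0.09, adjusted p = 0.0393) and the 2 others did not pass, while all 5 Cd8a probe sets passed in combination tumors and none in MEKi tumors.

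**Figure D2:**
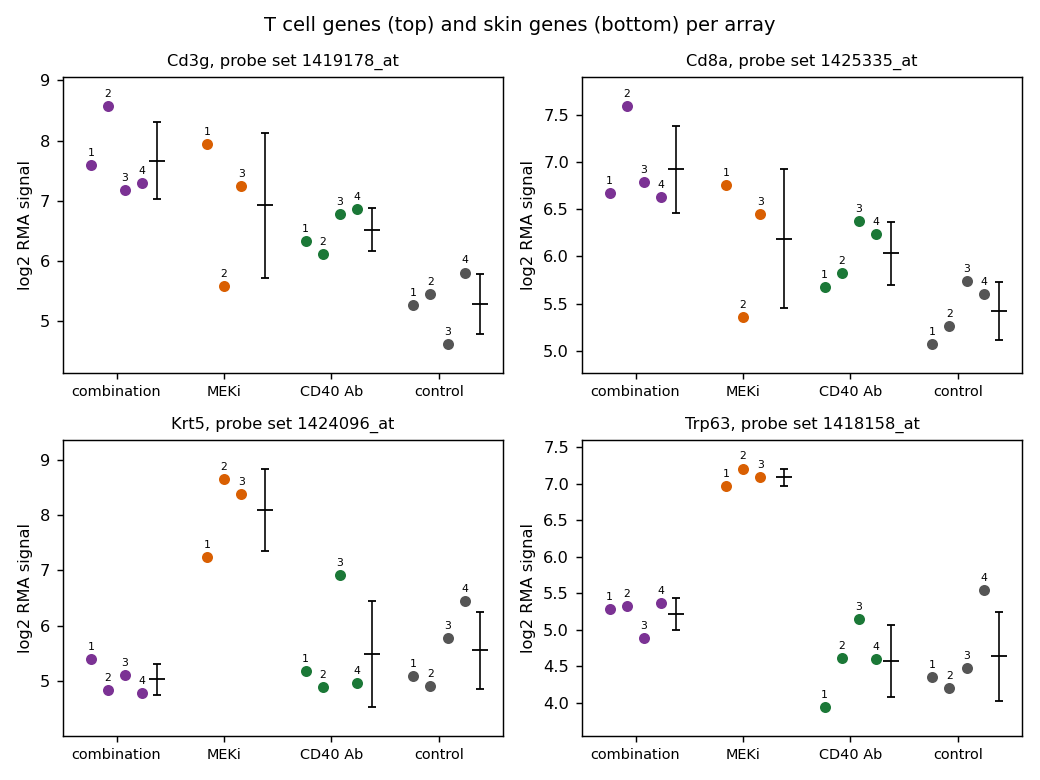
Log2 RMA signal (y axis, a separate scale for each gene) of Cd3g, Cd8a, Krt5 and Trp63 in each array, by group (x axis). Points are arrays with their replicate number, and black bars are group means with SD. MEKi replicate 2 has Cd3g at 5.59 and Cd8a at 5.36, within the control range, and the combination arrays have Krt5 at 4.79 to 5.39.

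Longer lists of marker genes gave the same 2 patterns. Of 16 measured T cell genes, 12 rose in combination tumors (median log2 difference 0.87), where 10.3% of all genes rose and 8.72% fell. Cd8b1 (2.38 ± 0.25, adjusted p = 0.000524) and Cd3d (1.84 ± 0.26, adjusted p = 0.00193), a coreceptor chain and a CD3 chain, were among the largest, and Cd4, Cd28, Zap70 and Cd27 did not pass. In MEKi tumors 0 of 16 T cell genes passed in limma (median 0.59), although 6 had an unadjusted p under 0.05, where 10.7% of all genes rose and 10.4% fell. Without MEKi replicate 2, 11 of 16 passed. In CD40 Ab tumors 3 of 16 rose (median 0.50), namely Cd8b1, Cd3d and Cd5, where 1.01% of all genes rose and 0.0495% fell. That count was 0 without CD40 Ab replicate 1, 3 or 4 and without control replicate 1, 2 or 3. In combination against CD40 Ab tumors, where 3.69% of all genes rose and 2.52% fell, 1 of 16 passed.

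Of 11 measured basal keratinocyte genes, 1 rose in combination tumors (median -0.25) and 9 in MEKi tumors (median 2.17). Among all genes 10.3% rose in combination and 10.7% in MEKi tumors. In a fit of all arrays with the title number range as a covariate, 2 rose in combination and 7 in MEKi tumors. The probe sets past the threshold in that fit were 5114 for combination and 5117 for MEKi tumors. Pkp1, a desmosomal plaque protein, was the gene that passed in combination tumors (0.41 ± 0.10, adjusted p = 0.0231). Krt17 (2.97 ± 0.60, adjusted p = 0.0134), a keratin of hair follicles and wounded skin, and Dsc3 (2.91 ± 0.38, adjusted p = 0.0022), a desmosomal cadherin, had the largest differences in MEKi tumors. In combination against MEKi tumors 7 of 11 fell, where 1.38% of all genes rose and 2.65% fell, and 0 of 16 T cell genes passed in limma, none with an unadjusted p under 0.05. The difference between the effect of the Ab with inhibitor and without it was tested as an interaction, which 2% of all genes passed upwards and 2.56% downwards. This test was added after the data were seen and was fitted without the title number range. It includes the difference between combination and MEKi tumors, which share no number range, and the part of that range was not tested. Krt5 (-3.0 ± 0.65, adjusted p = 0.0233) and Trp63 (-1.81 ± 0.40, adjusted p = 0.0242) passed, as did 7 of 11 basal keratinocyte genes, all downwards, and 0 of 16 T cell genes, none with an unadjusted p under 0.05.

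Counted array by array, the tumors with high Bcl11b fell on both sides. In combination replicates 1 to 4, 13, 16, 14 and 15 of the 16 T cell genes lay above every control tumor, and 1, 1, 2 and 2 of the 11 basal keratinocyte genes did, where 27.1%, 26.0%, 23.9% and 25.8% of all genes lay above every control. The T cell share was above that of all genes in each of these tumors and the basal keratinocyte share below it. In MEKi replicate 2, 1 of 16 T cell genes and 11 of 11 basal keratinocyte genes lay above every control, where 28.8% of all genes did. MEKi replicate 1, which had the highest Bcl11b signal of all arrays, had 15 of 16 and 9 of 11 (29.0% of all genes), and MEKi replicate 3 had 12 of 16 and 10 of 11 (32.7% of all genes). CD40 Ab tumors had 10 to 16 of the 16 T cell genes above every control (22.5% to 25.8% of all genes), with Bcl11b between 5.40 and 6.09. Bcl11b was therefore high in 1 tumor whose T cell list level (5.07) lay within the control range (4.99 to 5.27), and in 4 tumors whose basal keratinocyte list level (4.84 to 5.07) lay within theirs (4.66 to 5.68). These are whole tumors, in which fewer cells of a type and less RNA per cell cannot be told apart, and no value here assigns the Bcl11b transcript to a cell.

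**Figure D3:**
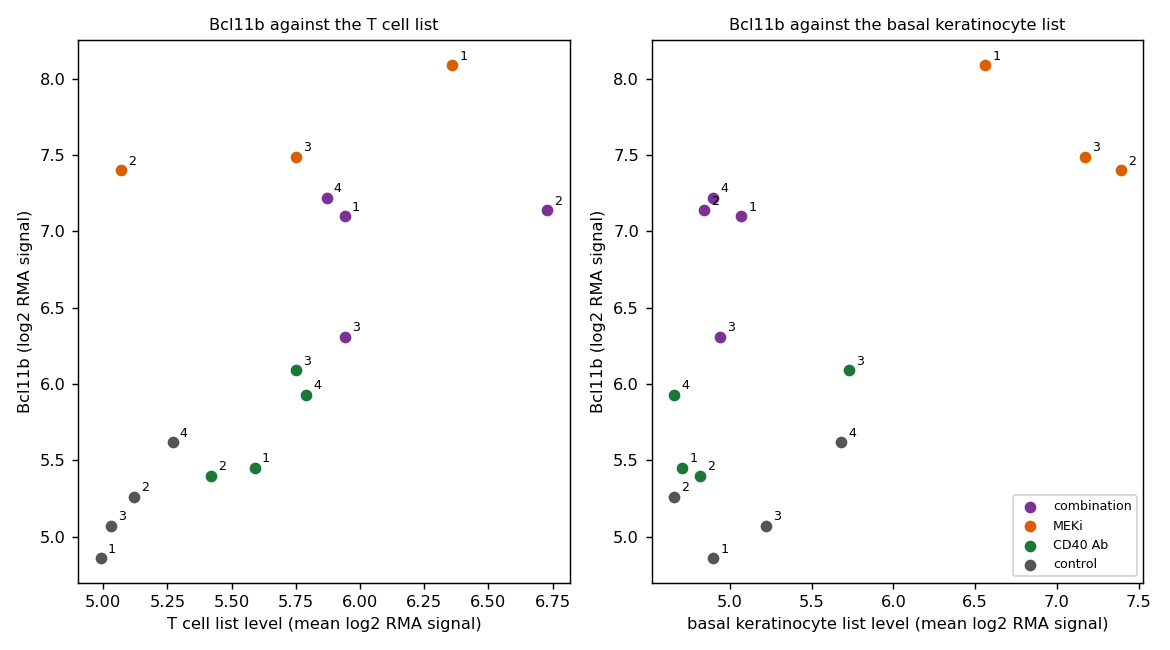
Bcl11b log2 RMA signal (y axis, probe set 1435227_at) against the mean log2 level of the T cell list (left) and the basal keratinocyte list (right) in each array, with replicate numbers. The 8 arrays without inhibitor give r = 0.90 on the left, MEKi replicate 2 lies at a T cell level of 5.07 with Bcl11b at 7.40, and the combination arrays lie at basal keratinocyte levels of 4.84 to 5.07.

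Correlations of Bcl11b were also taken in the tumors with and without inhibitor apart. They mix the differences between 2 groups with those between tumors, so they are given as a description with no test. In the 7 tumors with inhibitor the T cell list level gave r = 0.06 and Spearman's ρ = -0.25, with r = 0.52 without the 2 arrays farthest from the median. Trp63 gave r = 0.77 and Spearman's ρ = 0.86, with r = 0.93 without the 2 farthest arrays. The MEKi and combination tumors did not overlap in Trp63 or in Bcl11b. The basal keratinocyte list gave r = 0.61 and Spearman's ρ = 0.57, with r = 0.80 without the 2 farthest. Cd3g gave r = 0.07, with 0.73 without them, and Cd8a r = -0.18, with -0.26. Over the 16 lists r ranged from -0.73 (neuron) to 0.80 (genes tied to Bcl11b). It was 0.75 for ERK-driven transcripts, 0.73 for hair follicle and 0.69 for T lineage factors.

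In the 8 tumors without inhibitor the T cell list level gave r = 0.90 and Spearman's ρ = 0.90, with r = 0.75 without the 2 farthest arrays. Cd3g gave r = 0.87 and Spearman's ρ = 0.88, with r = 0.87 without the 2 farthest, and Cd8a gave r = 0.87 and Spearman's ρ = 0.71, with r = 0.64 without them. The basal keratinocyte list gave r = 0.36 and Spearman's ρ = 0.21, and r turned to -0.61 without the 2 farthest. Trp63 gave r = 0.52, with 0.21 without them, and Krt5 r = 0.48, with -0.40. Over all lists r ranged from -0.78 (neuron) to 0.90 (T cell), so strong values were not particular to T cell genes. It was 0.77 for T lineage factors, 0.74 for NK and innate lymphoid genes and -0.66 for NuRD genes. CD40 Ab and control tumors did not overlap in the T cell list level (5.42 to 5.79 and 4.99 to 5.27). Bcl11b was higher in the 3 tumors with title numbers from 10000 on (5.62 to 6.09) than in the 5 under it (4.86 to 5.45). The part of the group and of the number range in these correlations was not tested.

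Within groups, after each group mean was subtracted from all 15 arrays, no relation passed. The largest of the 16 list correlations was that of the BAF list, at r = 0.71 (exact permutation p = 0.00968, adjusted p = 0.155) and Spearman's ρ = 0.64 (exact permutation p = 0.0256, adjusted p = 0.208), with r = 0.59 without the 2 farthest arrays. The T cell list gave r = 0.58 (exact permutation p = 0.0665, adjusted p = 0.356 over 16 lists) and Spearman's ρ = 0.59 (exact permutation p = 0.039, adjusted p = 0.208), with r = 0.47 without the 2 farthest arrays. The basal keratinocyte list gave r = 0.17 (exact permutation p = 0.582, adjusted p = 0.717) and Spearman's ρ = 0.08 (exact permutation p = 0.82, adjusted p = 0.995), with r = -0.35 without the 2 farthest. Among the genes, Cd3g gave r = 0.64 (exact permutation p = 0.0315, adjusted p = 0.063 over 4 genes) and Trp63 r = 0.60 (exact permutation p = 0.0192, adjusted p = 0.063). With the T cell list level as a covariate, the Bcl11b difference from control was 1.15 in combination tumors, 2.09 in MEKi tumors and 0.20 in CD40 Ab tumors. With both list levels it was 1.11 in combination tumors and 1.43 in MEKi tumors.

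The skeletal muscle and dermal fibroblast lists also lay above control in both inhibitor groups. The skeletal muscle list ranged from 8.21 to 9.87 in combination tumors and from 7.82 to 10.81 in MEKi tumors, against 4.62 to 6.64 in CD40 Ab tumors and 4.69 to 7.22 in control tumors. Of 12 measured muscle genes, which encode contractile and other proteins of muscle fibers, 11 rose in combination tumors and 2 in MEKi tumors. The median log2 difference was 2.68 in combination and 2.46 in MEKi tumors. In MEKi tumors 11 had an unadjusted p under 0.05, as had 6716 of 18193 genes. Among all genes 10.3% rose and 8.72% fell in combination tumors, and 10.7% rose and 10.4% fell in MEKi tumors. These shares apply to the lists below too. All 12 muscle genes lay above every control in each combination tumor (23.9% to 27.1% of all genes), and 10 to 12 did in MEKi tumors (28.8% to 32.7% of all genes). With the muscle list level as a covariate, the Bcl11b difference from control was 1.35 in combination and 2.07 in MEKi tumors. The dermal fibroblast list ranged from 8.79 to 9.55 in combination, 9.78 to 10.86 in MEKi, 7.83 to 8.88 in CD40 Ab and 8.01 to 8.34 in control tumors, and the part of these tissues in the Bcl11b signal was not tested. The hair follicle list followed the skin pattern, at 3.66 to 4.48 in combination, 6.82 to 7.04 in MEKi, 3.79 to 3.88 in CD40 Ab and 3.78 to 5.88 in control tumors. Of 12 neuron genes, 3 fell and 0 rose in MEKi tumors in limma, with 3 at an unadjusted p under 0.05. Of 11 NK and innate lymphoid genes, 3 rose in combination and 0 in MEKi tumors in limma (3 at an unadjusted p under 0.05), of 9 B cell genes 1 and 0 (2), and of 7 adipocyte genes 1 and 0 (1). MEKi replicate 1, the tumor with the highest Bcl11b, stood apart in the B cell list, at 6.20 against 4.48 and 4.50 in the other MEKi tumors and 4.33 to 4.61 in control tumors, and Ms4a1, a B cell surface protein, was highest there at 7.95. Without that tumor the Bcl11b difference of MEKi from control tumors was 2.24, and the part of B cells in the Bcl11b signal was not tested. Of 12 suprabasal keratinocyte genes, 1 fell in combination tumors and 5 rose in MEKi tumors. Of 12 transcripts driven by ERK signaling, which the inhibitor blocks, 11 fell in combination and 4 in MEKi tumors.

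**Figure D4:**
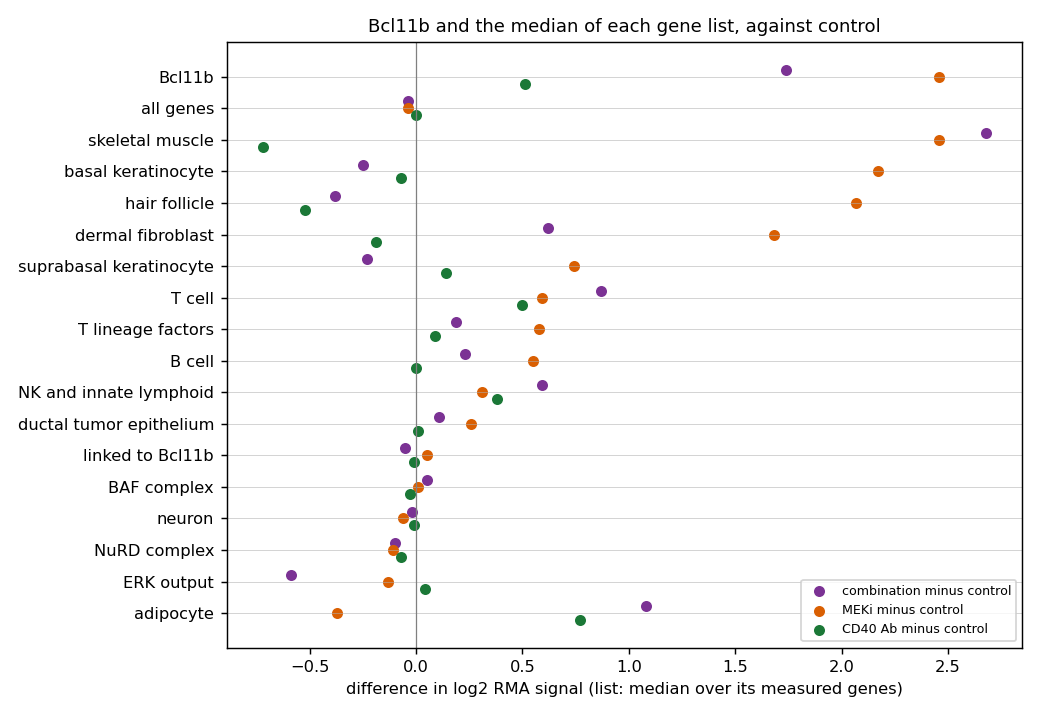
Difference from control in log2 RMA signal (x axis) of Bcl11b (probe set 1435227_at) and the median difference over the measured genes of each list (y axis), for combination, MEKi and CD40 Ab tumors. In MEKi tumors Bcl11b and the skeletal muscle list are both at 2.46, and the basal keratinocyte list is at 2.17. In combination tumors Bcl11b is at 1.74, the skeletal muscle list at 2.68 and the basal keratinocyte list at -0.25.

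The tumor epithelium was measured as well. Of 10 ductal genes, Epcam, a cell adhesion molecule of epithelia, was 2.03 ± 0.44 above control in combination tumors (adjusted p = 0.0155) and 2.81 ± 0.54 in MEKi tumors (adjusted p = 0.0112), and Muc1, a membrane mucin, was 0.88 ± 0.13 above control in combination tumors (adjusted p = 0.0022) and 1.28 ± 0.13 in MEKi tumors (adjusted p = 0.000927). These were the only 2 of the 10 that rose in either inhibitor group, where 10.3% of all genes rose in combination and 10.7% in MEKi tumors. In combination tumors 0 of 10 fell and in MEKi tumors 2 did, where 8.72% and 10.4% of all genes fell. Sox9 (-0.54 ± 0.10, adjusted p = 0.0113) and Msln (-0.48 ± 0.09, adjusted p = 0.00868) fell in MEKi tumors, and Krt8, Krt18 and Krt19, keratins of simple epithelia, did not pass in either group.

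Transcription factors of the T lineage were set beside Bcl11b as well. In combination tumors 3 of 16 rose, where 10.3% of all genes rose and 8.72% fell. They were Ikzf3 at 1.86 ± 0.26 (adjusted p = 0.00176), Ikzf1 at 1.15 ± 0.14 (adjusted p = 0.000905) and Rora at 1.04 ± 0.13 (adjusted p = 0.00104). Ikzf1 and Ikzf3 encode Ikaros family factors of lymphocytes, and they also rose in CD40 Ab tumors. In MEKi tumors 6 of 16 rose, where 10.7% of all genes rose and 10.4% fell. Among the 6 were Myb at 1.65 ± 0.16 (adjusted p = 0.000595), Rora at 1.62 ± 0.10 (adjusted p = 8.15e-05), Runx3 at 1.12 ± 0.19 (adjusted p = 0.00673) and Id3 at 0.95 ± 0.22 (adjusted p = 0.0235). Rora, a nuclear receptor found in innate lymphoid cells and many other tissues, was the factor that passed in both inhibitor groups. In combination against MEKi tumors, 2 of 16 fell, where 1.38% of all genes rose and 2.65% fell. They were Myb (-1.43 ± 0.23, adjusted p = 0.0197) and Gata3 (-0.73 ± 0.09, adjusted p = 0.0082). Ikzf1 (0.35 ± 0.48, adjusted p = 0.776), Ikzf3 (0.58 ± 0.45, adjusted p = 0.577) and Rora (-0.58 ± 0.15, adjusted p = 0.089) did not pass.

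Of 14 measured genes tied to Bcl11b by function, 2 rose and 2 fell in combination tumors, where 10.3% of all genes rose and 8.72% fell, and 3 rose and 1 fell in MEKi tumors, where 10.7% rose and 10.4% fell. These counts are near the shares of all genes, and the values below are given as a description of the list. Nr2f1 encodes the nuclear receptor COUP-TFI, through which Bcl11b was found as a binding partner. It fell by 0.94 in combination tumors (SE 0.11, adjusted p = 0.000624) and by 1.32 in MEKi tumors (SE 0.11, adjusted p = 0.000305) relative to control. Cdkn1a, a cell cycle inhibitor repressed by Bcl11b in other systems, rose by 0.76 ± 0.17 in combination tumors (adjusted p = 0.0176) and by 1.03 ± 0.13 in MEKi tumors (adjusted p = 0.00169), and Egfr, a growth factor receptor that Bcl11b regulates in keratinocytes, rose by 0.55 ± 0.08 (adjusted p = 0.00167) and 0.94 ± 0.17 (adjusted p = 0.00793) in the same order. Sirt1, a deacetylase recruited by Bcl11b, fell by 0.37 in combination tumors (SE 0.07, adjusted p = 0.00589), and Cdkn1c, another cell cycle inhibitor, rose by 1.22 ± 0.32 in MEKi tumors (adjusted p = 0.0379). The other 9 measured genes of this list (Bcl11a, Nr2f2, Id2, Zbtb16, Nfil3, Notch1, Tslp, Lrig1 and Satb1) passed in neither group, and 0 of 14 passed in CD40 Ab tumors in limma, with 3 at an unadjusted p under 0.05. Satb1, a chromatin organizer of thymocytes, was 1.82 above control in MEKi tumors (adjusted p = 0.0546).

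Bcl11a, the paralog of Bcl11b, has 7 probe sets, and none passed in any of the 5 comparisons. The one with the highest mean, 1447335_x_at, was flat (-0.10 ± 0.08 in MEKi tumors, adjusted p = 0.418). On 1457072_at the MEKi tumors gave 5.10, 3.34 and 3.15 against 2.45, 2.48, 2.36 and 2.84 in control tumors (1.33 ± 0.42, adjusted p = 0.0693). All 3 lay above the controls and replicate 1, the tumor with the highest Bcl11b, was the highest. Of 13 NuRD genes, Mta1 (-0.26 in each inhibitor group, adjusted p = 0.0141 in combination and 0.0329 in MEKi tumors) and Gatad2a (-0.23 in combination tumors, adjusted p = 0.0228) fell and the others did not pass. Among all genes 8.72% fell in combination and 10.4% in MEKi tumors. Of 16 BAF genes, 2 rose and 1 fell in combination tumors and 1 rose and 3 fell in MEKi tumors. These counts are again near the shares of all genes (10.3% up and 8.72% down in combination, 10.7% up and 10.4% down in MEKi tumors). Smarcd3 rose in both inhibitor groups (0.71 ± 0.10, adjusted p = 0.00216, in combination and 0.81 ± 0.07, adjusted p = 0.000346, in MEKi tumors).

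The gene with the profile nearest to Bcl11b was Ccl2, the chemokine that draws monocytes, at a root mean square difference of 0.276 log2 units over the 15 arrays after each profile was centered on its mean. Its log2 signal was 9.79, 9.86, 9.02 and 9.75 in combination tumors, 10.48, 9.32 and 10.19 in MEKi tumors, 8.25, 7.90, 8.36 and 8.60 in CD40 Ab tumors and 7.94, 8.00, 7.99 and 7.96 in control tumors. The 7 tumors with inhibitor lay above the 8 others, and combination replicate 3 was the lowest of the 7, as it was for Bcl11b. Rbms3, an RNA binding protein, followed at 0.280, then Arhgap26 (0.308), 2310057J18Rik (0.312), Fgfr3 (0.314), a fibroblast growth factor receptor, Pkhd1 (0.333), a protein of epithelial cilia, Pdzk1ip1 (0.343), Cyp2j5 (0.348), a cytochrome P450, Clic5 (0.354), an intracellular chloride channel protein, and Hsd11b2 (0.354), an enzyme that inactivates glucocorticoids. No member of the T cell or basal keratinocyte list was among these 10, and 10 places among 18192 genes would seldom hold one. Among 18192 genes ordered by this difference Trp63 was 193rd (0.572), Cd3g 856th (0.745), Cd8a 917th (0.754) and Krt5 16342nd (1.145). The difference depends on the size of a change as well as its shape, so a flat gene can rank above one that varies. Bcl11a, flat on its brightest probe set, was 10478th (1.039). The rank of Krt5 is thus no measure of how its profile varies with that of Bcl11b. Within groups Pkhd1 varied with Bcl11b at r = 0.90 and Clic5 at 0.27. These values are a description, since the genes were chosen for likeness to Bcl11b over the same 15 arrays.

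**Figure D5:**
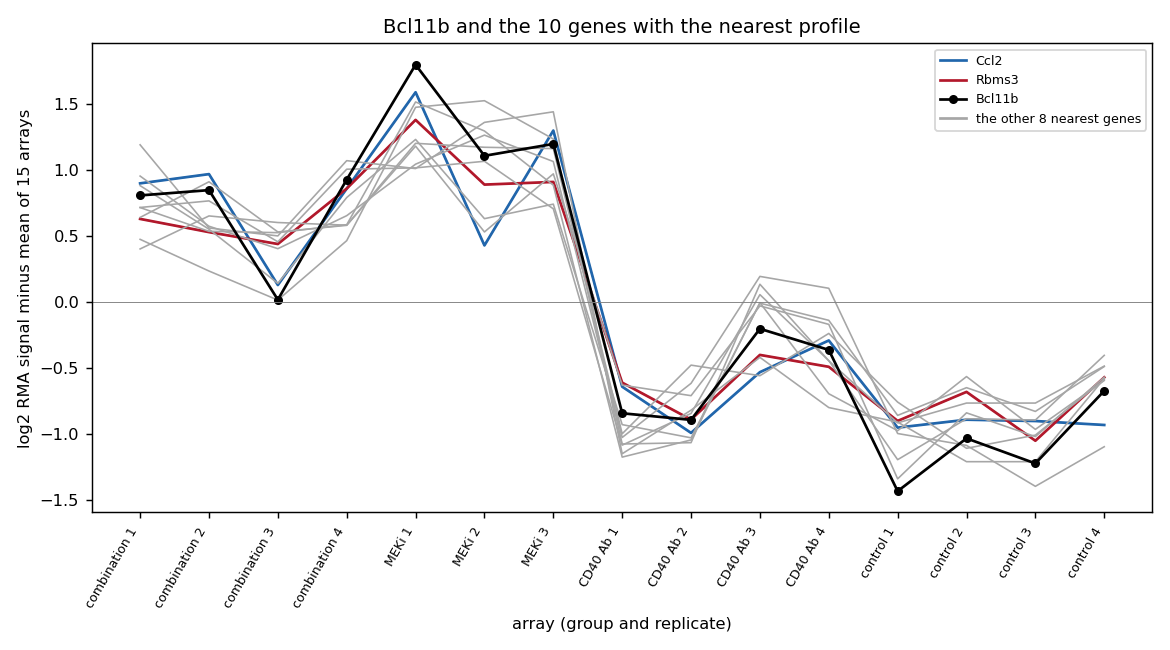
Log2 RMA signal minus the mean of the 15 arrays (y axis) for Bcl11b and the 10 genes with the nearest profile, by array (x axis). For Bcl11b, Ccl2 and Rbms3 every array with inhibitor lies above every array without it, and CD40 Ab replicate 3 lies above replicates 1 and 2 in Bcl11b.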

How the data were processed

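The authors deposited log2 signals per probe set of an Affymetrix mouse array, made from total RNA of whole tumors with a 3′ IVT kit and normalized by RMA, which includes background correction and quantile normalization. The RMA version is not given in the sources used here. Of 45101 probe sets, 64 Affymetrix controls were left out and 45037 were tested. Each of 18193 genes was represented by its brightest probe set among those with 1 symbol, taken over all 15 arrays, and 34741 of 34945 probe sets with 1 symbol matched RefSeq genes by Entrez ID. Comparisons between groups were two-sided empirical Bayes tests in limma 3.58.1 (R 4.3.3), each fitted to its own 2 groups. P-values were adjusted after Benjamini and Hochberg across the 45037 probe sets, and 0.05 was the threshold. The interaction was fitted on all 15 arrays and was added after the data were seen, as were the correlations with and without inhibitor and the list level covariates. The code was tested on simulated data. Correlations within groups used all 82944 permutations within groups. A list level is the mean log2 signal of its measured genes. Bcl11b and the 16 lists (210 genes, 196 measured) were chosen with earlier results of these data known. Genes named were every Bcl11b probe set, Cd3g, Cd8a, Krt5 and Trp63, up to 4 genes per list with the largest difference past the threshold, markers that did not pass where needed, all genes tied to Bcl11b and the 10 nearest profiles. Msln, Krt18, Pkp1, Mta1 and Gatad2a are named to complete counts. The number of arrays, 3 or 4 per group, limits the precision, and that MEKi has 3 arrays where the labels speak of 4 to 5 mice was not explained in the sources used here. Alternatives were another quantile normalization, median centering, a fit of all arrays, the title number range, a filter on dim probe sets, other Bcl11b probe sets, a replicate block and leaving out each array.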

Additional observations from a re-analysis of the deposited data

Results flagged for a closer look

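In groups of 4 arrays, a value far from the other 3 was looked for in Bcl11b, the 4 genes beside it and the T cell and basal keratinocyte lists. Chance alone gives such a value in about 1 in 20 groups. In combination tumors, Bcl11b (1435227_at) was 6.31 in replicate 3, where the others lay from 7.10 up. Cd8a was 7.60 in combination replicate 2, and the T cell list level was 6.73 in the same tumor, where the others were at most 6.79 and 5.94. Bcl11b in that tumor was 7.14, between those of replicates 1 and 4. Krt5 was 6.91 in CD40 Ab replicate 3, and the basal keratinocyte list level was 5.73 there, where the others were at most 5.18 and 4.82. That tumor also had the highest Bcl11b signal of its group, 6.09. The difference of combination minus CD40 Ab from MEKi minus control was -3.0 for Krt5 and -1.81 for Trp63 in log2 units. Both passed the interaction test, which was fitted without the title number range. The same difference in Cd3g was -0.49 (adjusted p = 0.764) and in Cd8a 0.12 (adjusted p = 0.931), and neither passed.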

How the results depend on the processing

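Across 306 alternative values, 230 stayed within the stated spread, within 1.5 times the count given or on the same side of the threshold, and 76 moved. All 108 alternatives for a Bcl11b difference kept its direction except combination against MEKi tumors with the hair follicle list level as a covariate (0.12, against -0.72 in the report); with the title number range as a covariate it was -0.14. The Bcl11b difference of MEKi from control tumors (2.46) was 1.48 on 1450339_a_at, 1.98 on 1452966_at, 0.93 on 1438784_at and 1.71 over the mean of the probe sets. It was 2.03 with the number range as a covariate, 2.04 in numbers from 10000 on, 2.09 with the T cell list, 1.43 with the T cell and basal keratinocyte lists, 1.74 with the hair follicle list and 2.07 with the muscle list as covariates. That of combination from control tumors (1.74) was 0.88, 0.90 and 0.56 on the same 3 probe sets, 1.02 over their mean, 1.15 with the T cell list, 1.11 with both lists and 1.35 with the muscle list. That of combination from CD40 Ab tumors (1.22) was 0.55, 0.65 and 0.28 on the 3 probe sets, 0.68 over their mean and 0.72 with the muscle list. The cause of these shifts was not tested.

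The replicate numbers were not taken to pair the tumors, since the sample titles name no pairing. Of 21 pairs of arrays with the same number, 9 correlated above 0.1 in their deviations from the group means (-0.28 to 0.21). Arrays with different numbers were not set beside them, so these values cannot settle whether the tumors were paired. With a replicate block, the probe sets past the threshold were 3159 for MEKi against control (7162 without it), 935 for combination against CD40 Ab (2019) and 180 for combination against MEKi tumors (1264). The block left the Bcl11b difference at 2.60 for MEKi, 1.74 for combination and 0.52 for CD40 Ab tumors against control.

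In the fit of all 15 arrays, T cell genes past the threshold were 3 in MEKi and 0 in CD40 Ab tumors and basal keratinocyte genes 0 in combination tumors. The probe sets called were then 42 for CD40 Ab against control (323 in the 2-group fit) and 3663 for combination against MEKi tumors. With the number range as a covariate, these counts were 36 and 809, with 2 basal keratinocyte genes in combination and 0 T cell genes in CD40 Ab tumors. Without probe sets of a mean below 6, T cell genes past the threshold were 5 in combination, 1 in MEKi and 1 in CD40 Ab tumors, and basal keratinocyte genes 2 in MEKi tumors. The filter leaves fewer probe sets, and the cause of these changes was not tested.

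Leaving out 1 array at a time kept the Bcl11b difference between 2.24 and 2.60 for MEKi, 1.63 and 1.95 for combination and 0.39 and 0.65 for CD40 Ab tumors against control, and between -0.85 and -0.50 for combination against MEKi tumors. The T cell genes past the threshold ranged from 0 to 11 in MEKi tumors (11 without MEKi replicate 2) and from 0 to 4 in CD40 Ab tumors, and the basal keratinocyte genes in combination tumors from 0 to 2. The probe sets past the threshold ranged from 4398 to 7883 for MEKi, 4077 to 6035 for combination and 0 to 320 for CD40 Ab against control, from 933 to 1908 for combination against CD40 Ab and from 431 to 2089 for combination against MEKi tumors. The correlation within groups stayed between 0.43 and 0.68 for the T cell list and between -0.09 and 0.45 for the basal keratinocyte list, and none passed. Arrays carry no read depth, and the 3 or 4 arrays per group limit each value.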
